A study of Homo sapiens with 4 samples.

Results

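The ferlins are large membrane proteins that carry several C2 domains, which in many ferlins bind calcium and phospholipid, and a single membrane anchor at the carboxyl end. They act where vesicles or membrane patches fuse with the cell surface, in membrane repair, in exocytosis and in receptor recycling. Here the family comprised 6 genes, FER1L6, FER1L5, FER1L4, MYOF, DYSF and OTOF, taken by symbol from a count table of 25369 genes. FER1L6 was known to be the gene of largest fold rise among well measured genes in the comparison below, and the family was chosen by that measured rise. The differences of the 6 members between the groups are therefore given as a description, without p-values.

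The study measured polyadenylated RNA in 4 libraries of H226, an established line from a human squamous cell carcinoma of the lung. In 2 libraries the cells expressed a doxycycline-inducible non-targeting short hairpin RNA (shControl), and in 2 libraries an inducible hairpin against p63 (shp63). The protein p63 is the transcription factor of basal and squamous epithelium encoded by TP63. Sample titles number the libraries of a group as replicates and do not state whether they were separate cultures. The cells of all 4 libraries, controls included, received doxycycline at 1 µg/mL for 6 days. The labels name 1 construct per group, so an effect of the hairpin itself and an effect of its target cannot be told apart. The libraries held between 51926832 and 53924761 counted reads. TP63 had 7533 and 7364 reads in shControl and 1596 and 1530 in shp63. Levels are given as CPM, reads scaled to library size with a correction for composition, or, where genes are compared with each other, as RPKM, the CPM divided by the length in kilobases of the canonical transcript. Of the 6 members 4 passed the filter on low counts (FER1L6, FER1L4, MYOF and DYSF), beside 14901 of 25369 genes in the whole table.

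In outline, FER1L6 was the lowest of the 4 measurable members in shControl and second to MYOF in shp63. DYSF and FER1L4 were more than 2-fold higher in shp63, MYOF was high in both groups with a small difference, and OTOF and FER1L5 were at or near 0 throughout. All 4 measurable members were higher in shp63 and passed an adjusted p of 0.05 in edgeR's quasi-likelihood test, as 74.0% of all tested genes did in either direction and 36.9% did upward. The groups did not overlap for any of the 4, as was so for 86.4% of tested genes. These counts rest on the comparison that chose the family, so nothing is read from them.

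FER1L6 encodes a ferlin of the type that lacks the dysferlin domain, the protein's role being little known. The gene lies on the plus strand of chromosome 8 from 124864227 to 125132302 (GRCh37), and its canonical transcript has 41 exons and 6051 bases. The shControl libraries held 221 and 184 FER1L6 reads, with 95% Poisson intervals of 193 to 252 and 158 to 213, which cover counting error only. The shp63 libraries held 10180 and 9794 reads. On the CPM scale the level was 3.99 and 3.42 in shControl against 195.7 and 195.3 in shp63, so both shp63 libraries stood far above both controls and nearly coincided. The group means were 3.70 ± 0.398 CPM and 195 ± 0.248 CPM (SD, n = 2 libraries each), a 52.7-fold difference (log2 fold change 5.72, SE 0.055). The control value was the less precise one. Its replicates differed by 0.22 on the log2 scale, where the median difference was 0.11 among 882 genes of like level, and the Poisson intervals of their counts overlapped. The shp63 replicates differed by 0.0026, where the median was 0.035 among 960 genes of like level. Their SD is therefore smaller than the usual spread at that level and is no measure of precision. Leaving out either control library moved the log2 fold change to 5.83 or 5.61.

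DYSF encodes dysferlin, the ferlin of muscle membrane repair whose loss causes limb-girdle muscular dystrophy. The gene spans 71680691 to 71913893 on the plus strand of chromosome 2 (GRCh37). It had 1527 and 1526 reads in shControl and 3612 and 3575 in shp63. The corresponding levels were 27.5 and 28.4 CPM against 69.4 and 71.3 CPM, tight pairs with a wide gap between the groups. The group means were 28.0 ± 0.599 and 70.4 ± 1.32 CPM (SD, n = 2 libraries each), a 2.52-fold difference (log2 fold change 1.33, SE 0.042). Replicates differed by 0.044 and 0.038 on the log2 scale, close to the medians of 0.047 and 0.040 for genes of like level. Of the annotated exon bases of DYSF, 526 are shared with a long non-coding RNA gene on the opposite strand, and the strand setting of the counting is not stated, so reads over them cannot be assigned by strand with certainty.

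FER1L4 is annotated as a transcribed unitary pseudogene, a ferlin gene whose human copy no longer encodes a full protein and is read as a long non-coding RNA. It lies on the minus strand of chromosome 20 from 34146507 to 34195484 (GRCh37). Its reads numbered 2538 and 2733 in shControl and 5704 and 4741 in shp63. The levels were 45.8 and 50.8 CPM against 109.6 and 94.5 CPM, so the groups stood apart, but the shp63 pair was spread widely. Its replicates differed by 0.15 in shControl and 0.21 in shp63 on the log2 scale, where genes of like level had median differences of 0.038 and 0.038. The means were 48.3 ± 3.58 and 102 ± 10.7 CPM (SD, n = 2 libraries each), a 2.11-fold difference (log2 fold change 1.08, SE 0.076). FER1L4 therefore had the largest standard error of the 4. Without the first shp63 library the log2 fold change was 0.97, and without the second it was 1.18.

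MYOF encodes myoferlin, a close relative of dysferlin that serves myoblast fusion, endocytosis and growth factor receptor recycling and is abundant in many carcinoma lines. It occupies 95066186 to 95242091 on the minus strand of chromosome 10 (GRCh37). MYOF had 47491 and 45363 reads in shControl and 51047 and 51451 in shp63. The levels were 856 and 844 CPM against 981 and 1026 CPM, with a gap between the groups that was larger than the spread within either. The means of 850 ± 8.95 and 1004 ± 31.7 CPM (SD, n = 2 libraries each) differed 1.18-fold (log2 fold change 0.24, SE 0.035). This difference was small enough to depend on scaling. With library totals alone, without a composition factor, the log2 fold change was 0.15. MYOF was not called against a 1.5-fold change and the other 3 were. Of all tested genes 22.7% were called in that test, 12.7% as higher. The family was chosen by this comparison, so nothing is read from these calls.

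OTOF encodes otoferlin, the calcium sensor of transmitter release in inner hair cells, and FER1L5 encodes a ferlin studied in myoblast fusion. OTOF, on chromosome 2 from 26680071 to 26781624, had 2 and 0 reads in shControl and 2 and 2 in shp63. FER1L5, on chromosome 2 from 97308474 to 97370624, had no read in either shControl library and 1 and 0 in shp63. A count of 0 allows a level of up to 0.0541 CPM in the first shControl library and 0.0558 CPM in the second (3 reads each). Both genes were below the filter in these libraries, and no fold is given for either. FER1L5 shares 45 exon bases with the neighbouring gene KANSL3 on the opposite strand.

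**Figure D1:**
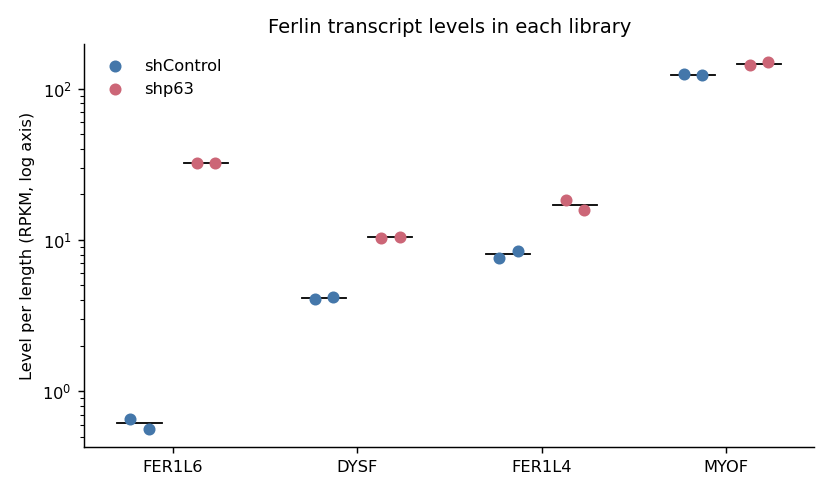
Level per length (RPKM, log axis) of the 4 measurable ferlin genes in each library; points are libraries (blue shControl, red shp63) and bars are means of 2. FER1L6 sits lowest in shControl, near 0.612 RPKM, and second to MYOF in shp63, at 32.3 RPKM, while the other 3 keep their order.

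Compared per length, the order of the family differed between the groups. In shControl MYOF led with 124 ± 1.30 RPKM, followed by FER1L4 with 8.06 ± 0.597, DYSF with 4.13 ± 0.0884 and FER1L6 with 0.612 ± 0.0658 RPKM (SD, n = 2 libraries each). No neighbours in that order overlapped between libraries except OTOF and FER1L5 at the bottom. In shp63 MYOF stood at 146 ± 4.63 RPKM, FER1L6 was next with 32.3 ± 0.0410, then FER1L4 with 17.0 ± 1.78 and DYSF with 10.4 ± 0.195 RPKM, again without overlap between neighbours. The FER1L6 level was 0.149 ± 0.0191 times that of DYSF in shControl and 3.11 ± 0.0624 times that of DYSF in shp63 (ratio of RPKM, SD, n = 2 libraries each). MYOF exceeded FER1L6 by 204 ± 19.7 times in shControl and by 4.53 ± 0.149 times in shp63. With all annotated exons in place of the canonical transcript as the length, the order was the same in both groups, with DYSF at 3.20 and 8.05 RPKM and FER1L4 at 4.72 and 9.98 RPKM.

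The summed level of the 6 genes was 137 and 136 RPKM in the shControl libraries and 204 and 208 RPKM in shp63, a ratio of means of 1.51. Without FER1L6 the sum of the other 5 genes was 136 ± 0.622 RPKM in shControl and 174 ± 3.04 RPKM in shp63 (SD, n = 2 libraries each), a ratio of 1.28. FER1L6 made up 45.7% of the increase in the sum, MYOF 32.3%, FER1L4 12.9% and DYSF 9.03%. MYOF, although its fold difference was the smallest, thus made up the second largest part of the increase in summed RPKM. That part depends on scaling, since the MYOF log2 fold change was 0.24 here and 0.15 with library totals alone. The parts were not computed with library totals. FER1L6 made up 0.448% ± 0.0459 of the summed level in shControl and 15.7% ± 0.248 in shp63, and the share of MYOF was 90.6% ± 0.498 and 71.0% ± 1.21 (SD, n = 2 libraries each). With all exons as the length, FER1L6 held 19.2% in shp63.

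**Figure D2:**
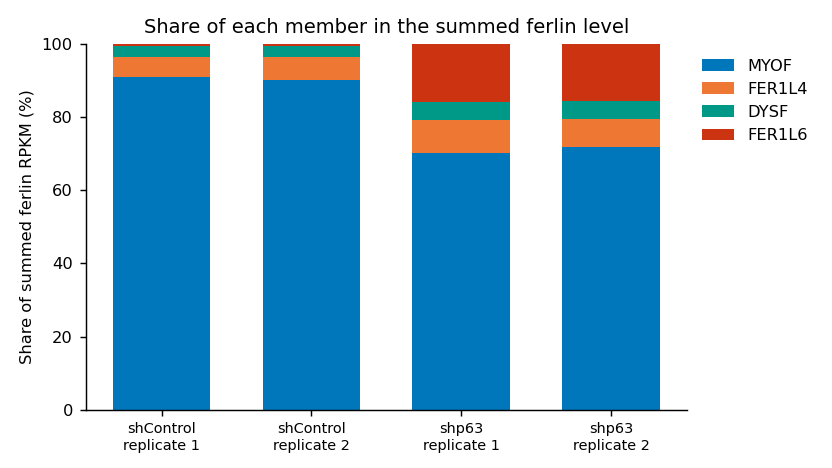
Share of each member in the summed ferlin level (percent of summed RPKM) in each of the 4 libraries; OTOF and FER1L5 are too low to be seen. FER1L6 forms a band of 15.9% and 15.5% in the shp63 libraries and of 0.480% and 0.415% in the shControl libraries.

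The 4 genes were then placed among all tested genes. The median log2 fold change of all 14901 tested genes was -0.01. A log2 difference of at least 1 upward with a call was found for 9.17% of them, and FER1L6, DYSF and FER1L4 were among these genes. C8orf4 had a log2 fold change of 4.86 (4.31 and 125 CPM), but it is 1 of the 5 nearest profiles of FER1L6 named below. A large fold change was therefore part of its choice. DYSF and FER1L4 lay at the upper side of the bulk, and MYOF lay within it at the high end of the expression range.

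**Figure D3:**
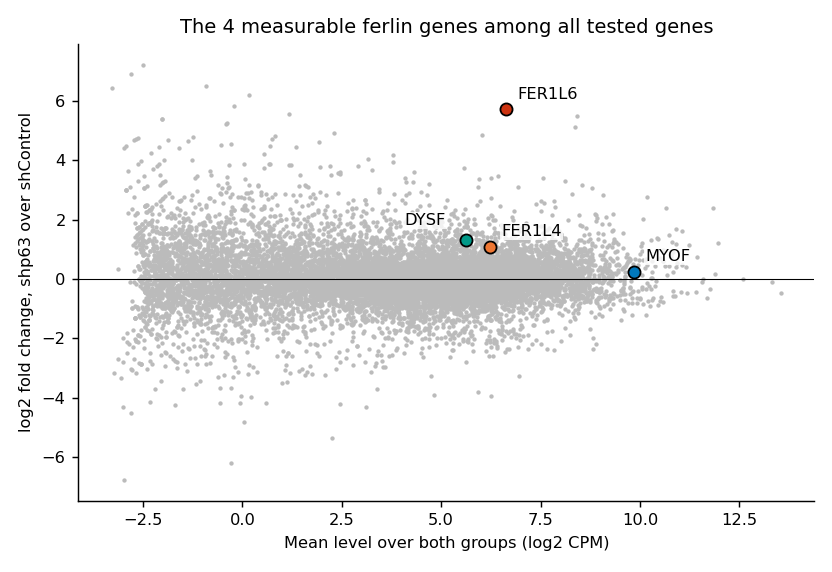
Log2 fold change of shp63 over shControl against mean level (log2 CPM) for all 14901 tested genes (grey), with the 4 measurable ferlin genes coloured. FER1L6 stands at 5.72, DYSF at 1.33, FER1L4 at 1.08 and MYOF at 0.24.

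The genes whose profile over the 4 libraries came nearest to that of FER1L6 were sought among 12928 others with at least 1 CPM on average. Nearness was the Euclidean distance between log2 CPM values centred on each gene's own mean. The 5 nearest were IGFBP5 (distance 0.335), an insulin-like growth factor binding protein, CEACAM6 (0.616), a cell surface glycoprotein, TFF1 (0.635), a trefoil peptide of mucous epithelium, C8orf4 (0.882) and COL8A1 (1.01), a collagen. TFF1 had 5 reads in each control library, and its mean was 0.0916 ± 0.00200 CPM there and reached 4.43 ± 0.286 CPM after p63 knockdown (SD, n = 2 libraries each). COL8A1 went from 0.312 ± 0.0586 to 9.53 ± 0.596 CPM. Over 4 libraries in 2 groups such a likeness is mostly that of a similar fold difference. Around MYOF the 5 nearest were UBE2R2, SAV1, ZNF784, PAIP1 and UBL5, all within a distance of 0.018, with log2 fold changes of 0.23 to 0.25.

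The genes around FER1L6 were read next, as a description, since FER1L6 was chosen for the size of its own difference. The 5 nearest genes of the table on each side had start sites 83.5 to 622.6 kb away, and 7 of these 10 were tested. Of the 7, 4 were called higher and 1 lower, beside 74.0% of all tested genes called, 36.9% higher and 37.1% lower. The log2 fold changes of the 7 ran from -0.21 to 0.48. FAM91A1, the nearest tested gene, went from 205 ± 3.14 to 286 ± 3.40 CPM (SD, n = 2 libraries each; log2 fold change 0.48). FBXO32, a ubiquitin ligase gene of muscle atrophy, went from 47.6 ± 2.75 to 64.7 ± 0.390 CPM. ANXA13, an annexin gene 114.6 kb upstream, had 4 and 0 reads in shControl and 1 and 2 in shp63. The antisense genes FER1L6-AS1 and FER1L6-AS2, whose spans overlap FER1L6 on the other strand, were listed at 0 in all 4 libraries. FER1L6-AS2 shares 408 exon bases with FER1L6, and no source used here states the strand setting of the counting, so reads over those bases cannot be assigned by strand with certainty.

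MYOF, DYSF and FER1L4 lay among genes of mixed behaviour. CEP55, a gene of the last step of cell division whose start site is 14.3 kb from that of MYOF, fell 4.20-fold from 135 ± 0.915 to 32.2 ± 1.56 CPM (SD, n = 2 libraries each; adjusted p = 1.19e-20, edgeR with Benjamini-Hochberg). KIF11, a mitotic kinesin gene 908.2 kb from MYOF on its other side, fell 3.35-fold from 172 to 51.3 CPM. RBP4, a retinol carrier gene 119.4 kb from MYOF, was at 0.394 and 1.57 CPM. Of the 8 tested neighbours of MYOF 3 were higher and 4 lower. DYSF had 10 tested neighbours, of which 5 were higher and 1 lower, with a median log2 fold change of 0.08. Among them only EMX1, a homeobox gene 1462.7 kb away, exceeded DYSF in log2 fold change, at 1.52 and low levels (0.660 and 1.89 CPM). The 8 tested neighbours of FER1L4 were all called, 5 higher and 3 lower, between -0.67 and 0.79. SPAG4, 8.3 kb from the FER1L4 start, was at 0.706 ± 0.106 and 1.22 ± 0.0927 CPM, and ERGIC3, a gene of early secretory transport, rose from 329 ± 5.25 to 548 ± 7.63 CPM. Around all 6 members 37 of 47 tested neighbours were called (78.7%), beside 74.0% of all tested genes, so the share was near the background. Beside those given, called neighbours with a log2 difference of at least 1 were the cell division genes NCAPH and CENPA, at -1.79 and -2.30. Their start sites lay 307.0 kb from that of FER1L5 and 205.5 kb from that of OTOF.

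**Figure D4:**
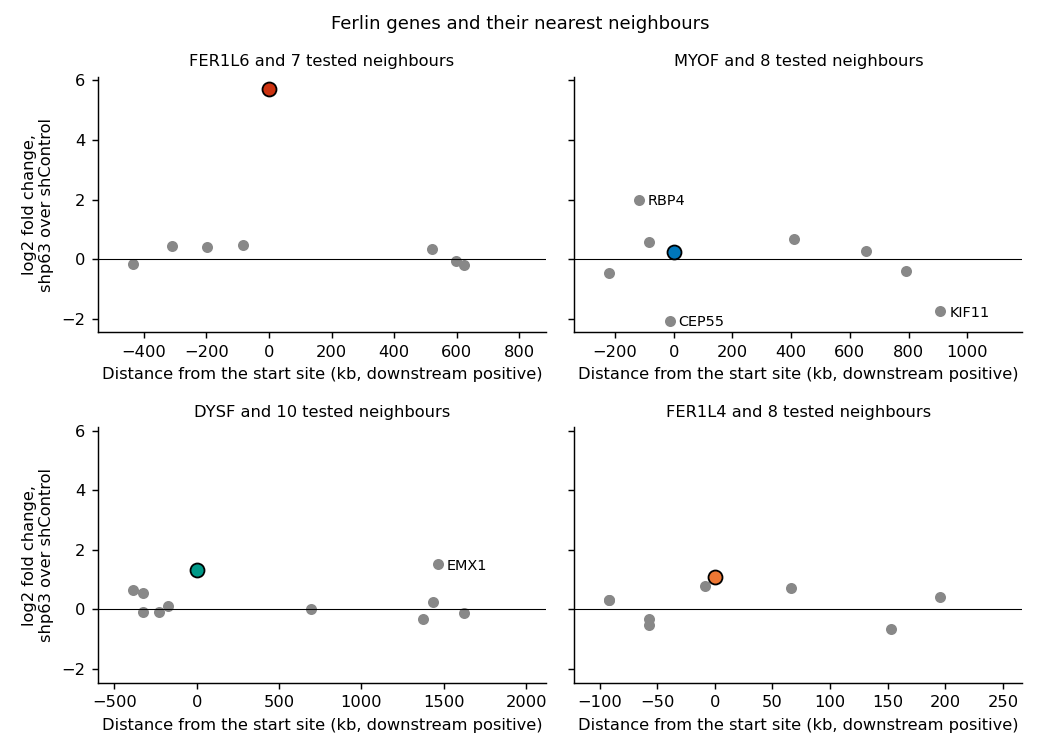
Log2 fold change of shp63 over shControl for 4 ferlin genes (coloured, at 0 kb) and their tested neighbours (grey) by distance from the ferlin start site in kb, positive in the direction of transcription; neighbours beyond 1 log2 unit are named. The tested neighbours of FER1L6 lie between -0.21 and 0.48, and MYOF at 0.24 lies beside CEP55 at -2.07.

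The bases before the start sites of MYOF and DYSF are shown because these 2 genes, close relatives in sequence, differed 1.18-fold and 2.52-fold. Of the 6 members 3 had an entry in the RefSeq promoter table (GRCh38.p14), and OTOF, the third, was too low to be compared. MYOF and DYSF each had a single window there, and counts per gene do not show which start site the cells used. The windows hold the 250 bases before the annotated start, at chr10:93482335-93482584 on the minus strand for MYOF and chr2:71453311-71453560 on the plus strand for DYSF, written 5′ to 3′. Capitals mark matches to the motifs searched on both strands, which do not overlap each other here.
MYOF: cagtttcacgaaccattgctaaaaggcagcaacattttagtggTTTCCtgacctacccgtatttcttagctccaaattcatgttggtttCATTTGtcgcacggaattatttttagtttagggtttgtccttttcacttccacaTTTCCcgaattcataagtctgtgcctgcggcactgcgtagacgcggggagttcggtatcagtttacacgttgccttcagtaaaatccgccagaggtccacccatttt
DYSF: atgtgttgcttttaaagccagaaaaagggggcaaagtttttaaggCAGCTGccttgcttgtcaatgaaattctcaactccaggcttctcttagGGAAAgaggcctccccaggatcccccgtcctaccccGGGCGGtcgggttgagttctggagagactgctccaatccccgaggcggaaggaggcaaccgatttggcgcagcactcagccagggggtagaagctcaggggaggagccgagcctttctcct
The MYOF window held 2 matches to the NFAT core GGAAA, both on the other strand, and 1 to the E-box CANNTG. The DYSF window held 1 NFAT core, 1 E-box and 1 GC box (GGGCGG). These letters are common, since 55.6% of all 35116 windows in the table held the NFAT core, 61.8% the E-box and 42.6% the GC box. No exact match to the p53 family half-site, the AP-1 motif TGANTCA, the TEAD motif GGAATG or TATAAA lay in either window, and 5.57%, 6.57%, 11.9% and 10.7% of all windows held them. The G and C content was 44.4% for MYOF and 56.4% for DYSF, beside a median of 58.0% over all windows.

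Genes that work beside ferlins in membrane repair moved both ways. Annexins are calcium-dependent membrane binders that seal a wound together with dysferlin, calpains cleave dysferlin, and the ESCRT proteins shed damaged membrane. Of 34 listed genes 31 were tested, of which 14 were called higher and 9 lower (74.2% called, beside 74.0% of all tested genes) with a median log2 fold change of 0.03. SMPD1, acid sphingomyelinase, rose from 13.7 ± 0.468 to 68.4 ± 1.33 CPM (SD, n = 2 libraries each; log2 fold change 2.32). CAPN3, the muscle calpain, rose from 4.48 ± 0.422 to 11.2 ± 1.04 CPM, and ANXA6 from 8.32 ± 0.208 to 15.6 ± 0.00390 CPM. The ESCRT subunit gene CHMP4B rose from 180 ± 2.40 to 271 ± 7.17 CPM. CAV1, the caveolin of cell surface pits, fell from 272 ± 0.924 to 64.9 ± 2.65 CPM, and ANXA1 fell from 191 ± 7.70 to 60.1 ± 2.37 CPM. ANXA8 and ANXA8L1 fell by 1.03 and 0.87 on the log2 scale, but these 2 genes are near-identical copies whose reads the counting could split. The adjusted p was 8.43e-22 for SMPD1, 1.10e-22 for CAV1 and 4.35e-20 for ANXA1 (edgeR with Benjamini-Hochberg). TRIM72, the muscle repair partner of dysferlin, had at most 2 reads in any library, and CAV3, the muscle caveolin, had none in the 4.

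Other membrane proteins with several C2 domains were called about as often as all tested genes. Of 48 listed synaptotagmins, extended synaptotagmins, synaptotagmin-like proteins, copines and related genes 32 were tested, of which 15 were higher and 10 lower (78.1% called, beside 74.0% of all tested genes, 36.9% higher and 37.1% lower), with a median log2 fold change of 0.19. SYTL2, a RAB27 effector of exocytosis, rose from 20.1 ± 0.452 to 61.6 ± 0.361 CPM (SD, n = 2 libraries each; log2 fold change 1.62), while its relative SYTL1 fell from 28.0 ± 0.616 to 9.73 ± 0.0510 CPM (log2 fold change -1.53). SYT17 rose from 6.09 ± 0.566 to 14.9 ± 0.0706 CPM, and ESYT2, a tether between endoplasmic reticulum and cell surface, rose from 364 ± 4.45 to 515 ± 1.31 CPM. TC2N rose by 0.79 on the log2 scale. SYT8 fell from 27.8 ± 2.23 to 9.30 ± 0.353 CPM, and SYT7, a calcium sensor of lysosome exocytosis, fell from 36.1 ± 1.79 to 23.4 ± 0.332 CPM. CPNE1, a copine gene that is also a neighbour of FER1L4, fell from 252 ± 0.0302 to 200 ± 0.479 CPM, a count made uncertain by RBM12, which starts at the same place on the same strand. For SYTL2 and SYTL1 edgeR gave adjusted p-values of 8.03e-20 and 3.66e-16. The log2 fold changes of the 32 ran from -2.26 for CPNE8, at 0.713 and 0.147 CPM, to 1.71 for SYT5, at 0.0727 and 0.244 CPM.

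SNARE proteins drive the fusion step in which ferlins take part. Of 31 listed SNARE genes and regulators 27 were tested, of which 16 were higher and 5 lower (77.8% called, beside 74.0% of all tested genes, 36.9% higher and 37.1% lower), with a median log2 fold change of 0.18 and mostly small differences. NSF, the ATPase that recycles SNARE complexes, rose from 69.4 ± 2.57 to 117 ± 1.27 CPM (SD, n = 2 libraries each; log2 fold change 0.75). VAMP2, VAMP8 and STX11 rose by 0.68, 0.44 and 1.34 on the log2 scale. SNAP47 fell by 0.42, STX2 fell by 0.41, RAB27A fell by 0.28 and STXBP5 fell by 0.20. The neuronal SNARE gene SNAP25 had no read in the 4 libraries. The adjusted p was 1.03e-13 for NSF and 2.12e-07 for SNAP47 (edgeR with Benjamini-Hochberg).

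Among genes tied to myoferlin in endocytosis and receptor traffic, 17 of 20 listed were tested, with 7 higher and 4 lower (64.7% called, beside 74.0% of all tested genes) and a median log2 fold change of 0.05. Of the 4 EHD ATPase genes, of which EHD1 and EHD2 encode proteins known to bind myoferlin, 1 was higher, 1 lower and 2 were not called. EHD1 rose from 129 ± 4.85 to 252 ± 4.15 CPM and EHD2 fell from 76.2 ± 1.96 to 27.9 ± 0.809 CPM (SD, n = 2 libraries each; log2 fold changes 0.97 and -1.45). EHD3 was at 2.07 and 1.82 CPM and EHD4 at 58.8 and 56.3 CPM, with adjusted p-values of 0.274 and 0.194 in edgeR. The clathrin genes CLTB and CLTC rose by 0.93 and 0.27 on the log2 scale, the adaptor gene AP2M1 rose by 0.29 and AP2B1 fell by 0.30. EGFR, the epidermal growth factor receptor, fell from 191 ± 8.90 to 104 ± 1.33 CPM. In edgeR's test neither IGF1R, with 451 and 467 CPM (adjusted p = 0.162), nor the dynamin gene DNM2, with 120 and 126 CPM (adjusted p = 0.0564), was called. The other listed dynamin genes were both called, DNM1 as lower (1.31 and 0.605 CPM) and DNM3 as higher (3.39 and 4.32 CPM). KDR and TEK, the endothelial receptors that myoferlin binds in vessels, had at most 6 reads in any library. FLT1, a further receptor gene of the list, had 1 and 1 reads in shControl and 8 and 11 in shp63. It was below the filter. The adjusted p was 2.46e-17 for EHD1, 7.14e-18 for EHD2 and 5.97e-16 for EGFR (edgeR with Benjamini-Hochberg).

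**Figure D5:**
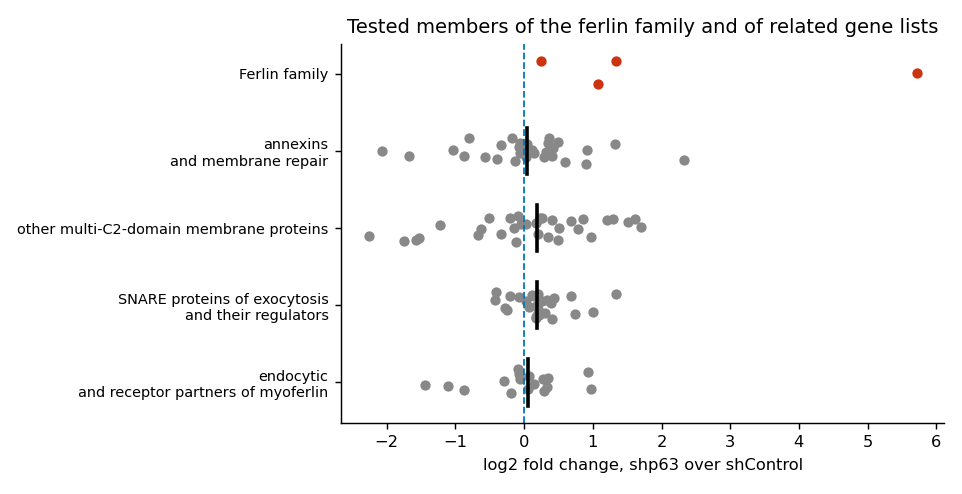
Log2 fold changes (shp63 over shControl) of the 4 measurable ferlin genes (red) and of tested members of 4 related gene lists (grey); black bars are list medians and the dashed line is the median of all tested genes. The 4 ferlin genes lie between 0.24 and 5.72, and the medians of the lists lie between 0.03 and 0.19.

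Markers of 6 cell types were read in the same libraries. All 4 libraries came from 1 established line, so the markers are read as transcript levels and not as numbers of such cells. Whether all cells or a part of them changed cannot be told from these libraries. The calls stand beside 74.0% of all tested genes called, 36.9% higher and 37.1% lower. All 10 squamous markers were tested, 8 lower and 2 higher in shp63, with TP63 itself among the lower. Their summed level was 4918 to 5017 CPM in shControl and 3203 to 3397 CPM in shp63. The median log2 fold change of the 10 was -2.15, and 7 were lower by at least 1, while KRT17 alone, at 3897 and 3061 CPM, made up most of both sums. SOX2, a defining squamous factor, was near 0 in both groups (0.229 and 0.0395 CPM). Of 8 skeletal muscle markers, relevant to DYSF and MYOF, 2 were tested, of which ACTA1 was higher, with sums of 0.967 to 1.03 and 0.980 to 1.24 CPM, and MYOD1 and MYH2 had no reads. Of 8 endothelial markers 3 were tested, 2 higher and 1 lower (VWF, at 4.66 and 1.30 CPM). The sums of 59.97 to 65.1 and 190.0 to 191.6 CPM came mostly from CDH5, and CLDN5 had no reads. Of the 7 gastric and mucous epithelial markers with a row, 2 were tested, TFF1 and GKN2, both higher. The sums of 5.16 to 5.41 and 50.7 to 52.6 CPM came mostly from GKN2 (5.12 and 47.0 CPM), while TFF3 and CLDN18 had no reads. Of 8 myeloid markers 6 were tested, 4 higher and 1 lower (ITGAM, at 0.695 and 0.274 CPM), with sums of 15.0 to 16.4 and 81.7 to 85.3 CPM. Most of both sums came from CD14 (6.17 and 43.9 CPM) and CD68 (6.61 and 31.6 CPM). PTPRC, the pan-leukocyte marker, was at 0.0913 and 0.137 CPM and CD163 had no reads. Of 8 mesothelial markers 4 were tested, 3 higher and 1 lower (BNC1, at 80.2 and 47.7 CPM), with sums of 415 to 441 and 678 to 685 CPM. Most of both sums came from MSLN (132 and 330 CPM) and UPK3B (215 and 302 CPM). WT1 was at 0.0642 and 0 CPM, and ITLN1 had no reads. The gastric, myeloid, endothelial and mesothelial sums were higher in the same libraries as FER1L6, DYSF and FER1L4, and their part in those differences was not tested.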

How the data were processed

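The authors deposited raw read counts for each gene symbol in 4 libraries. Per the series' design text and the submitters' processing notes, a stranded mRNA kit was used, reads were aligned with TopHat2 2.0.13 to GRCh37 and counted with HTSeq 0.6.1; the gene annotation and the strand setting are not stated in these sources. Columns were matched to samples by name. Nothing in the table names shared batches.

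Counts were fitted with edgeR 4.0.16 in R 4.3.3 (TMM factors, filterByExpr with a minimum count of 10 and minimum total of 15, robust quasi-likelihood model with group as the only term, Benjamini-Hochberg adjustment over 14901 genes, calls at an adjusted p under 0.05). Of 14901 genes 11033 were called. With 2 libraries against 2, an exact permutation test of 1 gene cannot give a p under 0.333, so calls rest on a spread shared across genes. That spread was small (common coefficient of variation 0.031), and the calls treat the replicates as independent, which the sample titles do not state. The replicates of a group differed by more than counting error (chi-square per degree of freedom 3.39 and 3.70). For a single gene, however, the SD of 2 libraries can fall below counting error. Log2 CPM values used a prior count of 2. Lengths, positions and neighbours came from GENCODE release 44 lifted to GRCh37, and promoter windows from RefSeq (GRCh38.p14). On simulated counts the test recovered 86.6% of 67 genes changed by 0.585 and 89.4% of 66 changed by 1 (log2), with 7 false calls, in a fit of 14745 genes. Only 200 genes were changed in that simulation, and its spread was taken from these same libraries. It therefore does not give the rate of false calls among the 11033 genes called here.

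The members, 4 pathway lists, 6 marker lists and the naming rule were chosen with earlier results of these data known. Named genes were all members, TP63, per pathway list up to 4 called members per direction of smallest adjusted p with at least 1 CPM, called neighbours beyond 1 log2 unit, and the 5 nearest profiles of FER1L6 and MYOF. Other named genes (FAM91A1, FBXO32, ANXA13, SPAG4, ERGIC3, SYT5, CPNE8, EHD3, EHD4, TRIM72, CAV3, SNAP25, IGF1R, DNM1, DNM2, DNM3, KDR, TEK, FLT1 and single markers) were chosen after their values were seen. The alternatives were RLE factors, library totals, no filter, a filter of 1 CPM in 2 libraries, DESeq2 1.42.0, limma-voom (limma 3.58.1), a block for the replicate number, leaving out each library, and a test against a 1.5-fold change.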

Additional observations from a re-analysis of the deposited data

How the results depend on the processing

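Against a 1.5-fold change 3385 genes were called in place of 11033, with 9 of the membrane repair list (23 otherwise), 10 of the other C2-domain list (25), 3 of the SNARE list (21), 5 of the myoferlin partner list (11), 9 neighbours (37) and 3 of the 4 measurable ferlins, MYOF being the one lost. Under the other alternatives each of these counts stayed within 1.5 times its value. Leaving out 1 library at a time, where the lone library is assumed to vary like the other group, gave 10354 to 10547 called genes, 4 ferlins each time, 21 to 23 membrane repair genes, 22 to 26 C2-domain genes, 19 to 22 SNARE genes, 11 to 13 myoferlin partners and 34 to 38 neighbours. The labels number the replicates without naming a shared batch. With the replicate number as a block 10858 genes and 4 ferlins were called, 23, 25, 21 and 11 in the 4 lists and 37 neighbours. The replicate differences of the 2 groups had a correlation of -0.11 across genes, and with crossed numbers as the block, a fit added after this was seen, 11387 genes and 4 ferlins were called. The log2 fold change ranged over all alternatives from 5.61 to 5.83 for FER1L6, 1.24 to 1.35 for DYSF, 0.97 to 1.18 for FER1L4 and 0.15 to 0.27 for MYOF, and none changed sign. OTOF and FER1L5 had 0 to 2 reads per library, and the filter left them out of the test. All ferlin calls in this section rest on the comparison that chose the family, so nothing is read from them.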
